A study of Rattus norvegicus with 4 samples.

Results

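The Frizzled receptors and Smoothened make up class F of the G protein-coupled receptors (GPCRs). Members were the genes of the study's list of choroid plexus GPCRs whose name starts with FZD, together with SMO, which gave 10 genes (FZD1 to FZD9 and SMO) of the 106 receptors on that list and of 32883 gene IDs in all. The list stops at 0.5 TPM, a level scaled by transcript length and library total, in males, so that presence there was fixed by the choice of members, and the lowest member, FZD5, had 1.54 TPM. FZD10 is not on the list and was not analysed here. RNA sequencing was done on 4 libraries from Sprague Dawley rats aged 9 weeks: whole choroid plexus pooled from 5 males, whole choroid plexus pooled from 5 females, choroid plexus epithelial cells of 10 males captured by fluorescence-activated cell sorting (FACS) with an antibody against the cotransporter NKCC1, and proximal tubules hand-picked from enzyme-digested kidneys of 5 males. By the study's methods the kidneys were taken from the male rats that gave the whole choroid plexus, so those 2 libraries share animals. No treatment or genetic change is given for the animals. These libraries are called the male plexus, the female plexus, the FACS cells and the tubules. The FACS cells were digested with collagenase before the sort and the whole tissue was not, so that digestion and sort cannot be told apart. With 1 library per group there is no replicate check, no test and no spread between animals, and the 95% intervals below cover counting error only.

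Frizzled receptors bind secreted Wnt proteins through a cysteine-rich domain outside the cell. Together with the co-receptors LRP5 and LRP6 they stabilise β-catenin through Dishevelled, and without them they act on cell polarity and calcium. Smoothened has the same architecture but carries the Hedgehog signal: Patched holds it inactive until a Hedgehog ligand binds Patched, after which Smoothened moves into the primary cilium and activates the GLI transcription factors. The choroid plexus is a ciliated epithelium that forms at the dorsal midline of the brain, where both pathways act in development.

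The libraries were not alike. Total expected counts lay between 23873318 and 28324976, and 70.7% of those of the tubules fell on the 13 mitochondrially encoded genes, against 4.32 to 5.34% in the other libraries, which left the tubules 7352952 counts on other genes. In the FACS cells TTR, the thyroxine carrier made by this epithelium, stood at 389655 TPM against 238565 in the male plexus. Since TPM values share 1 fixed total, a larger share of TTR goes with smaller shares of the rest. The median ratio of FACS to male over all genes was 0.620, and the part of TTR in it was not tested. The label of the FACS cells was checked against marker genes with a name at hand. All 15 epithelial markers were present, 2 higher and 13 lower than in the male plexus. SLC12A2, which encodes NKCC1, the protein used for the sort, had 150.3 TPM there against 267.6 TPM in the male plexus. Markers of other cells were present too. The 13 immune markers summed to 4668 TPM in the FACS cells and to 866 TPM in the male plexus, with 12 of the 13 higher, among them CD74, CSF1R and LYZ2. The 11 endothelial markers summed to 285 against 209 TPM, with 5 higher and 6 lower, and PLVAP alone had 177.9 against 104.9 TPM. The 8 mural and fibroblast markers summed to 1617 against 1008 TPM, with 5 higher and 3 lower, and most of the difference lay in MGP, at 1065 against 544 TPM, and DCN, at 239 against 102 TPM. No marker of these 3 lists was at 0 in the FACS cells. In the proximal tubule library, 9 of 9 tubule markers were higher than in the choroid plexus. Markers at 0 there were 5 of the 11 endothelial, 2 of the 8 mural and fibroblast and 8 of the 13 immune ones. Of the 15 markers of the choroid plexus epithelium, 8 were at 0. Zeros were frequent in this library, as given below, so these counts are no check of its purity.

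FZD2 and SMO were the most abundant of the 10 genes. FZD2 (ENSRNOG00000021962), a receptor for Wnt5a among other ligands, had 76.2 TPM in the male plexus (95% interval 73.5 to 78.9, 3059 expected counts), 80.3 TPM in the female plexus, 52.1 TPM in the FACS cells and 0 in the proximal tubule. It was high in all 3 choroid plexus libraries and placed 4th, 3rd and 3rd among the 106 listed GPCRs. SMO (ENSRNOG00000008332), the Hedgehog signal transducer, had 62.5 TPM in the male plexus (60.5 to 64.5, 3734 counts), 54.2 TPM in the female plexus, 46.6 TPM in the FACS cells and 0 in the proximal tubule. It placed 5th, 5th and 4th. SMO had more counts than FZD2 in the male library and a lower TPM, since its effective length was 2438 bases against 1639 bases for FZD2, the shortest of the 10. A level per length depends on the gene model, and the models of the other members reached 6576 bases for FZD4.

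FZD7 (ENSRNOG00000016119), which is the closest relative of FZD2 and FZD1, had 35.8 TPM in the male plexus (34.3 to 37.3, 2235 counts), 35.0 TPM in the female plexus, 16.3 TPM in the FACS cells and, with mitochondrial genes kept, 0.360 TPM in the tubules. It placed 9th and 10th among the GPCRs in the whole tissues and 21st in the FACS cells. FZD2, FZD7 and SMO together held 76.7% of the summed TPM of the 10 genes in the male plexus, 78.3% in the female plexus and 77.5% in the FACS cells. The 10 genes summed to 227 TPM, 216 TPM and 148 TPM in the same order.

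**Figure D1:**
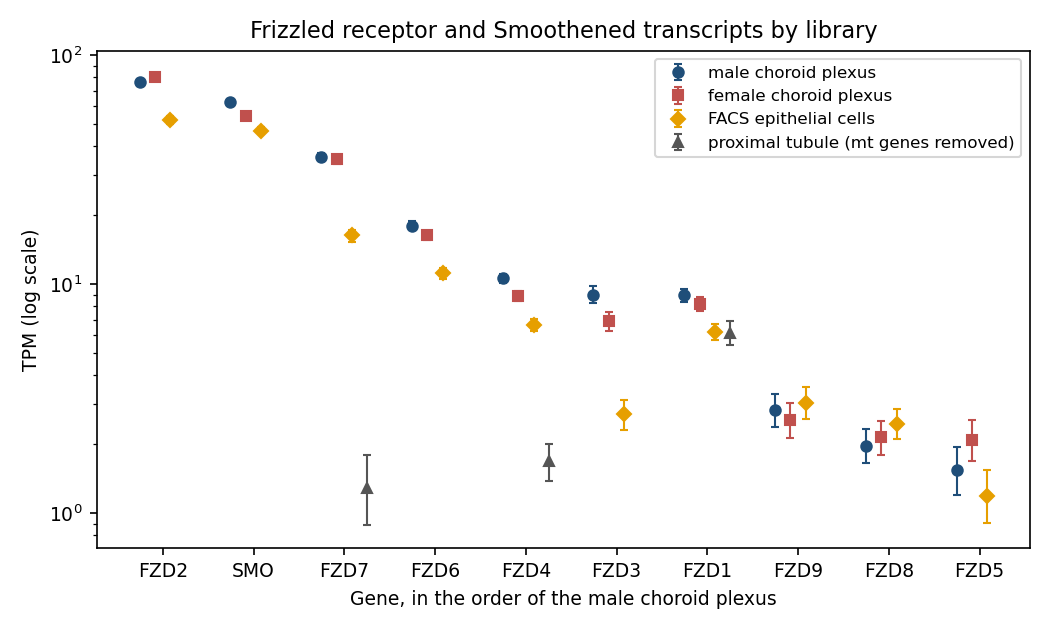
TPM (log scale) of the 10 genes in each of the 4 libraries, with mitochondrially encoded genes removed for the proximal tubule. Points are single libraries, bars are exact Poisson 95% intervals of the counts, and the 7 genes listed at 0 in the proximal tubule have no point there. FZD2, SMO and FZD7 lie above the other genes in each choroid plexus library.

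The other Frizzled genes were lower. FZD1 (ENSRNOG00000016242), with FZD2 and FZD7 the third gene of their subfamily, had 8.94 TPM in the male plexus, 8.19 TPM in the female plexus and 6.18 TPM in the FACS cells. The subfamily of FZD1, FZD2 and FZD7 thereby reached a sum of 121 TPM in males, or 53.2% of all 10 genes. FZD6 (ENSRNOG00000004660) and FZD3 (ENSRNOG00000047211), which form the subfamily tied to planar cell polarity, differed from each other. FZD6 had 18.0 TPM in males, 16.3 TPM in females and 11.2 TPM in FACS cells. FZD3 had 8.98 TPM in males, 6.87 TPM in females and 2.7 TPM in FACS cells. FZD6 was thus the fourth most abundant gene in each of these libraries.

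FZD4 (ENSRNOG00000016848), the receptor for norrin in retinal vessels, had 10.6 TPM in the male plexus, 8.87 TPM in the female plexus and 6.65 TPM in the FACS cells. Its relative FZD9 (ENSRNOG00000001452) had 2.82, 2.54 and 3.03 TPM in the same order. FZD8 (ENSRNOG00000061031) had 1.97 TPM in the male plexus from 131 counts, 2.14 TPM in the female plexus and 2.46 TPM in the FACS cells. FZD5 (ENSRNOG00000014678), the nearest relative of FZD8, had 1.54, 2.08 and 1.19 TPM, from 71, 94 and 58 counts. FZD5 and FZD8 together made up 1.54% of the summed TPM of the 10 genes in the male library, so that the subfamilies differed widely in level.

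In the male plexus the order was FZD2, SMO, FZD7, FZD6, FZD4, FZD3, FZD1, FZD9, FZD8 and FZD5. The counting intervals of 2 of the 9 neighbouring pairs overlapped, FZD3 with FZD1 and FZD8 with FZD5. In the female plexus 3 pairs overlapped, FZD4 with FZD1, FZD9 with FZD8 and FZD8 with FZD5. In the FACS cells FZD4 overlapped with FZD1, FZD9 with FZD3 and FZD3 with FZD8. The first 4 places were held by FZD2, SMO, FZD7 and FZD6 in each of the 3 libraries.

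**Figure D2:**
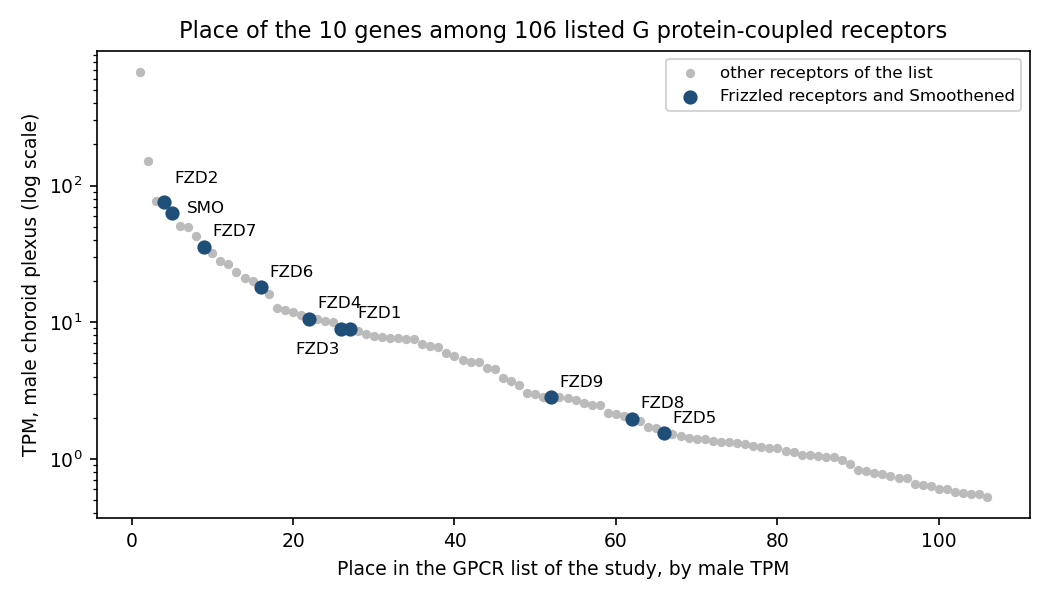
TPM in the male plexus (log scale) against the place in the study's list of 106 GPCRs, with the 10 genes in blue and the other 96 in grey. FZD2 and SMO hold places 4 and 5, FZD7 place 9 and FZD6 place 16, and FZD5 is lowest of the 10 at place 66.

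The start regions of FZD7 and SMO are shown because these were the abundant members with an entry in the RefSeq promoter table and differed in their ratio of FACS to whole tissue, given below. The windows run from 250 bases before to 50 bases after the annotated start and are from the build GRCr8, while the counts rest on Rnor_6.0. Of the 10 genes, 7 had an entry (FZD1, FZD4, FZD5, FZD7, FZD8, FZD9 and SMO), matched by symbol. FZD7 lies at chr9:68425288-68425587 on the + strand and SMO at chr4:59310834-59311133 on the + strand, both written 5′ to 3′. Matches to CTTTGA, a form of the core of the TCF/LEF motif, or to its reverse complement are in capitals.
FZD7: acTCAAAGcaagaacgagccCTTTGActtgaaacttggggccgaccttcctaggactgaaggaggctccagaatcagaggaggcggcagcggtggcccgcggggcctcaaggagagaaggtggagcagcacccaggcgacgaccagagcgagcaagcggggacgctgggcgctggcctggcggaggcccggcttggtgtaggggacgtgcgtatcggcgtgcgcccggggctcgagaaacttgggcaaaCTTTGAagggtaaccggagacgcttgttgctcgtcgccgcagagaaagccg
SMO: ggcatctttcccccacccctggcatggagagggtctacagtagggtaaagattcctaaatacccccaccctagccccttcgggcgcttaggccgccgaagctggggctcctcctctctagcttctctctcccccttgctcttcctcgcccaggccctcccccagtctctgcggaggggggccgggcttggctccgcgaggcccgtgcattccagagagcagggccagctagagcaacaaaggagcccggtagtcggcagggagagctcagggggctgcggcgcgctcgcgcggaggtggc

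The FZD7 window held 3 matches to CTTTGA on either strand and the other 6 windows held 0, while 16.1% of all 33469 windows of the table held at least 1. The GC box GGGCGG, searched on both strands, had 6 matches in FZD4, 8 in FZD5, 1 in FZD9 and 0 in the windows of the other 4 genes, against 33.1% of all windows with at least 1. All 7 windows were rich in G and C, with 64.3 to 75.7% against a median of 51.7% over the table. A match describes the letters only. Other forms of the TCF/LEF motif were not searched, so 0 matches to CTTTGA does not mean that a window lacks the motif.

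In the FACS cells, FZD3 and FZD7 were lower than in the male plexus by 2-fold or more, and the other 8 genes were within 2-fold. The study made this comparison to ask how far transcripts of the whole tissue are those of its epithelial cells. In the FACS cells 13 of the 15 epithelial markers were lower and 2 higher, while 12 of the 13 immune markers were higher and 1 lower. The ratio of a gene alone therefore does not place it in the epithelium or outside it. Fold changes are given as log2 ratios of TPM + 1, which understate the change of genes with low TPM. FZD3 had 2.7 TPM against 8.98 TPM, a ratio of 0.301 (95% interval 0.252 to 0.357) and a log2 ratio of -1.43. FZD7 had a ratio of 0.454 (0.422 to 0.489) and a log2 ratio of -1.09. Of all 14024 genes at or above 0.5 TPM in either library, 25.5% were lower by 2-fold or more and 4.61% higher, so that 2 of 10 lower and 0 of 10 higher was near the share over all genes. Members passed 0.5 TPM in males by their choice, while these shares also hold genes that passed in the FACS cells alone. Relative to the median log2 ratio of all genes, -0.58, FZD3 stood at -0.85 and FZD7 at -0.51, and 0 of the 10 genes was then lower by 2-fold.

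FZD2 had a ratio of FACS to male of 0.684 (0.648 to 0.723) and SMO one of 0.746 (0.711 to 0.783). Their counting intervals lay above that of FZD7. FZD1, FZD4 and FZD6 had ratios of 0.691, 0.626 and 0.618, and these 5 genes were within 0.17 of the median log2 ratio of all genes. For FZD5, FZD8 and FZD9 the intervals reached from 0.537 to 1.11, from 0.989 to 1.58 and from 0.851 to 1.36, so that each held a ratio of 1. The intervals of FZD8 and FZD9 lay above the median ratio of all genes, 0.620, and their log2 ratios of 0.22 and 0.08 were 0.80 and 0.66 relative to the median log2 ratio of all genes. The median log2 ratio of the 10 genes was -0.50, 0.08 above that of all genes. Across all genes the log2 ratio of FACS to male fell with effective length (Spearman rho -0.144 across 14024 genes, which are not independent replicates). The members span 1639 bases for FZD2 to 6576 bases for FZD4, and the part of length in their ratios was not tested. Against the female plexus in place of the male, FZD3 and FZD7 were again the 2 genes lower by 2-fold or more, beside 16.8% of all genes. In such bulk libraries, fewer cells of a type and less RNA per cell cannot be told apart. The immune markers were higher and TTR took a larger share in the FACS cells, and their part in these ratios was not tested.

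**Figure D3:**
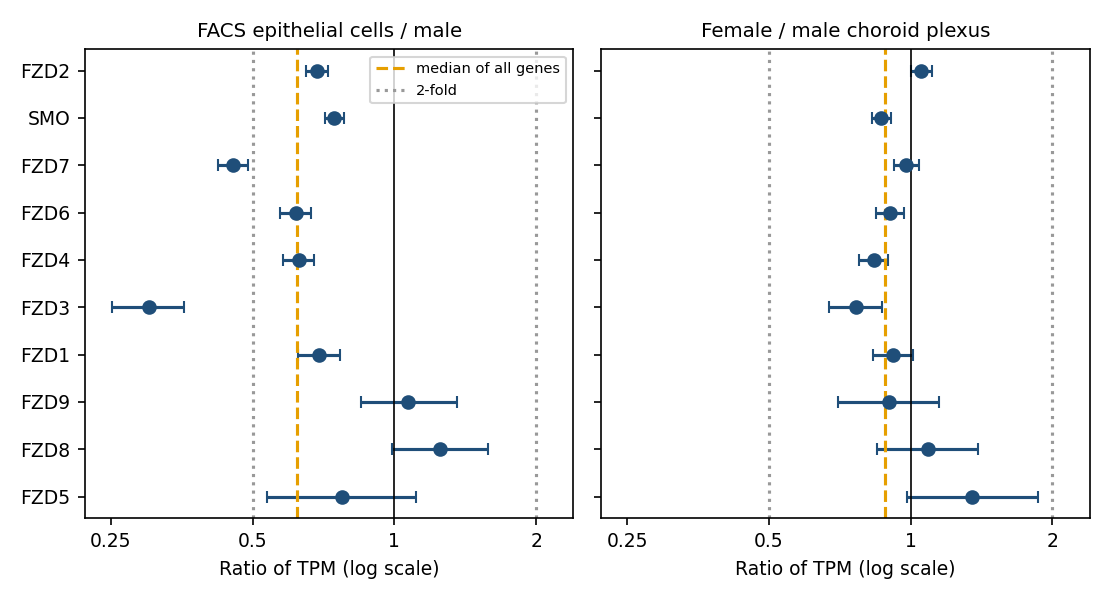
Ratio of TPM (log scale) of the 10 genes, FACS cells to male plexus on the left and female to male plexus on the right. Bars are exact 95% intervals of the 2 counts, the dashed line is the median ratio of all genes (0.620 and 0.883) and dotted lines mark 2-fold. FZD3 and FZD7 lie past 2-fold on the left and no gene does on the right.

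The other receptors are set beside the class F genes as a description only. Over the 96 other GPCRs the log2 ratio of FACS to male had a median of 0.02, with 15 higher and 6 lower by 2-fold or more, and the 40 receptor tyrosine kinases one of -0.28. The 10 genes had -0.50 and the 15 epithelial markers -0.62. The endothelial, mural and fibroblast, and immune markers had medians of -0.09, 0.13 and 1.60. The GPCR list itself holds immune receptors, such as CX3CR1 and PTAFR.

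**Figure D4:**
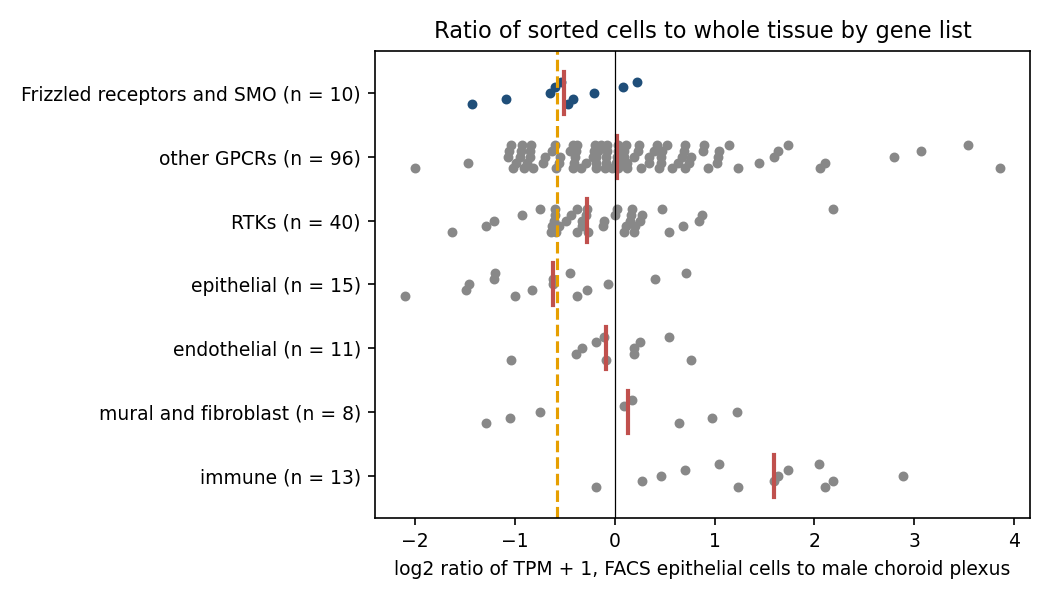
log2 ratio of TPM + 1, FACS cells to male plexus, for each gene of 7 lists, with a red bar at the median of the list and the dashed line at the median of all genes, -0.58. The Frizzled receptors and SMO lie between -1.43 and 0.22, and the immune markers reach 2.89.

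Between the female and the male plexus, 0 of the 10 genes differed by 2-fold or more, as against 1.40% of all 13869 genes in either direction. The comparison asks whether the sexes share the profile of the tissue, and it uses the same male library as the others. The log2 ratios of female to male lay between -0.34 for FZD3 and 0.28 for FZD5, with a median of -0.11 against -0.16 over all genes. FZD2 was at 1.05 times the male level (1.0 to 1.11) and FZD7 at 0.977 times (0.920 to 1.04). SMO had a ratio of 0.867 (0.827 to 0.909), close to the median ratio of all genes of 0.883. FZD3 had 0.765 (0.671 to 0.871) and FZD5 1.35 (0.982 to 1.86), the latter from 94 and 71 counts. Across all genes the log2 ratio fell with effective length (Spearman rho -0.313 across 13869 genes, which are not independent replicates), and the members span 1639 to 6576 bases.

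In the proximal tubule, 7 of the 10 genes were listed at 0. Of all genes within 2-fold of the male level of each of these 7, 41.2 to 78.4% were at 0 too. Mitochondrially encoded genes were removed from both libraries and TPM rescaled for this comparison with another fluid-transporting epithelium. FZD1 had 6.13 TPM from 265 counts, FZD4 1.69 TPM from 115 counts and FZD7 1.29 TPM from 34 counts, beside 9.76, 11.6 and 39.1 TPM in males on the same scale. FZD1 was the 1 gene of the 10 within 2-fold, with a ratio of 0.629 (0.546 to 0.722) and a log2 ratio of -0.59, and its direction depended on the scaling. Its log2 ratio was -1.87 with mitochondrial genes kept, where 10 of the 10 genes and 79.0% of all genes were lower by 2-fold or more. It was 0.09 on expected counts scaled to a fixed total and 1.68 relative to the median log2 ratio of all genes. FZD4 and FZD7 had ratios of 0.145 (0.119 to 0.176) and 0.0330 (0.0228 to 0.0463). FZD2, FZD3, FZD5, FZD6, FZD8, FZD9 and SMO had no count there. For FZD2, 3 counts would have given 0.177 TPM.

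By the ratio, 9 of the 10 genes were lower by 2-fold or more, while 71.0% of all 14227 genes were. Members passed 0.5 TPM in males by their choice, while the shares over all genes also hold genes that passed in the tubules alone. Members and all genes thus rest on unlike filters, which leans the members towards lower. Many abundant genes were listed at 0 in this library, among them CTNNB1 and RAC1, which have a use in nearly every cell. Of the 2247 genes within 2-fold of the male level of FZD2, 41.2% were at 0 in the proximal tubule, and of the 2627 genes within 2-fold of SMO, 43.4%. For FZD6, FZD3, FZD9, FZD8 and FZD5 these shares were 53.8%, 60.7%, 72.8%, 76.2% and 78.4%. Of the other GPCRs of the list, 77 of 96 were at 0. A 0 in this library is therefore given only as listed. Relative to the median log2 ratio of all genes, -2.27, 5 of the 10 genes were lower by 2-fold, namely FZD2, FZD3, FZD6, FZD7 and SMO, as were 34.7% of all genes. Of these, FZD2, FZD3, FZD6 and SMO had no count there, and neither had FZD5, FZD8 and FZD9. Among genes without a count, the male level and the pseudocount alone set which ones pass.

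Other genes of both pathways were taken from 7 lists of Wnt and Hedgehog signalling, where a name was at hand for 31 of 137 genes, mostly genes with a high level in males. No name was at hand for LRP5, LRP6, the genes of Dishevelled, Patched and GLI, or any Wnt or Hedgehog ligand, so these were not measured here. On the list of Wnt co-receptors and other Wnt receptors, LRP1 had 69.8 TPM in the male plexus, and whether it acts as a Wnt receptor there was not tested. RYK, a Wnt-binding receptor with an inactive kinase, had 38.0 TPM there and PTK7, a co-receptor in planar polarity, 21.9 TPM. ROR1 and ROR2, receptors for Wnt5a, had 2.67 and 1.33 TPM, and MUSK, a muscle kinase that binds Wnt, 0.900 TPM. LGR4, a receptor for the R-spondins, which keep Frizzled receptors at the cell surface, had 12.7 TPM. WLS, the carrier that takes Wnt proteins to the cell surface, had 337 TPM. Of the secreted modulators, SOSTDC1, an inhibitor of Wnt and BMP signals, had 1567 TPM, DKK3 147 TPM, and SFRP1, which binds Wnt through a Frizzled-like domain, 95.1 TPM.

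Inside the cell, CTNNB1, which encodes β-catenin, had 178 TPM in the male plexus, and the corepressor TLE5 508 TPM. SKP1 and RBX1, subunits of the ubiquitin ligase that removes β-catenin, had 606 and 260 TPM. Of the planar polarity genes, the small GTPases CDC42, RAC1 and RHOA had 362, 319 and 217 TPM, while CELSR2 had 7.60 TPM. On the Hedgehog side, PRKAR1A, a regulatory subunit of protein kinase A, which restrains GLI, had 162 TPM. The G protein subunits GNAI2 and GNAS had 127 and 123 TPM, and MGRN1, a ubiquitin ligase that lowers Smoothened at the surface, 69.7 TPM. GPR161, a GPCR on the Hedgehog list, had 1.14 TPM. Many of the abundant genes serve other pathways too, so their levels are no measure of Wnt or Hedgehog activity.

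In the FACS cells, 0 of the 6 Wnt co-receptors and other Wnt receptors, 0 of the 3 secreted modulators, 3 of the 8 intracellular Wnt genes, 2 of the 4 planar polarity genes and 2 of the 8 Hedgehog genes were lower than in males by 2-fold or more. With WLS and LGR4, at log2 ratios of -1.33 and -1.07, this made 9 of 31 genes lower and 0 of 31 higher, beside 25.5% and 4.61% of all genes. CTNNB1 had a log2 ratio of -1.47, RAC1 of -1.18, PRKAR1A of -1.34 and MGRN1 of -1.63. GNAI2 was the Hedgehog gene with a higher level in the FACS cells, at a log2 ratio of 0.38, and ROR2 the Wnt receptor, at 0.68. Between the sexes, 0 of the 31 genes were past 2-fold, beside 1.40% of all genes, and LGR4 had the lowest log2 ratio of female to male at -0.50.

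Among 2180 named genes with 5 TPM or more in males, the genes most like each of the most abundant members over the 4 libraries were sought by the Euclidean distance of log2(TPM + 1), each gene centred on its own mean. RSPH1 was nearest to FZD2 at a distance of 0.0362, with 75.6, 77.7 and 51.8 TPM in the male, female and FACS libraries and 0 in the proximal tubule, followed by MAF1 and NAXE. These were also at 0 in the proximal tubule, with 79.5 and 74.2 TPM in males. CCDC65 was nearest to FZD7 at 0.0503, followed by ATP5F1B and ZFP706. BCL2L1 was nearest to SMO at 0.0752, followed by ZFP385A and SLC5A6. Each distance rests on 4 libraries, with mitochondrially encoded genes kept, and is a description. The proximal tubule, where zeros were frequent, enters each distance, so a gene at 0 there with a like male level comes out near to FZD2. A shared function of these genes with the members was not tested.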

How the data were processed

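RNA of 4 pooled rat libraries was sequenced by the authors, who used STAR 2.7.2a for alignment, RSEM 1.3.3 for quantification and, as reference, Rnor_6.0 with Ensembl release 103, per the labels and the study's methods. The authors deposited for each gene an expected count, which is an estimate, the effective length of its model in bases, and a TPM, whose sum is fixed. Strandedness is not given in the sources used here, so reads of overlapping antisense genes could not be told apart. Gene names came from the study's supplementary lists, which name 2452 of the 32883 IDs.

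Ratios of TPM, log2 ratios with a pseudocount of 1, exact Poisson intervals of counts and exact (Clopper-Pearson) intervals of ratios were computed at the 95% level with scipy 1.17.1, pandas 2.3.3 and numpy 2.4.6 under Python 3.11.15, after tests on simulated data, and drawn with matplotlib 3.10.9. A gene entered a comparison at or above 0.5 TPM in either library. For the proximal tubule, mitochondrially encoded genes were removed and TPM rescaled, following the study, which left them out for comparisons between these tissues. With 1 library per group, past the threshold means 2-fold or more. The members and lists were chosen with earlier results of these data known. All members are named, and list genes are named for the highest male TPM (up to 3 a list), the largest or smallest ratio of FACS to male, or a part in the receptor complex. CELSR2 and GPR161 are named as the lowest of their lists in males. Marker genes are named as checks of the labels, CD74, CSF1R, LYZ2, PLVAP, MGP, DCN and the immune GPCRs after their values were seen. The alternatives were other cut-offs, pseudocounts, scalings and reference libraries. Protein sequences were not analysed here.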

Additional observations from a re-analysis of the deposited data

How the results depend on the processing

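Each value rests on 1 pooled library, so depth limits counting error alone, and the levels of FZD5, FZD8 and FZD9 rest on 58 to 173 counts per choroid plexus library. No paired analysis was possible because each group has 1 library. The count of genes lower by 2-fold or more in the FACS cells, 2, was 1 without the 10 highest genes of each library and 1 on expected counts scaled to a fixed total, in both cases FZD3, and 0 relative to the median of all genes, beside 14%, 15.2% and 6.03% of all genes. FZD7 then had log2 ratios of -0.72, -0.80 and -0.51. The cause was not tested. The count was 2 with pseudocounts of 0.1 and 0.5, without mitochondrially encoded genes, without a cut-off and against the female tissue, beside 34.8%, 30.5%, 27.5%, 10.9% and 16.8% of all genes. For the proximal tubule, the count of 9 was 5 relative to the median of all genes. There the log2 ratios of FZD4, FZD5, FZD8 and FZD9 were 0.04, 0.85, 0.62 and 0.24, and that of FZD1, -0.59, was 1.68. FZD5, FZD8 and FZD9 had no count in this library, so their log2 ratios follow from the male level and the pseudocount. With a pseudocount of 0.1 these were -4.15, -4.49 and -4.99 before any shift by the median. On expected counts scaled to a fixed total FZD1 had 0.09. With a cut-off of 5 TPM, 6 genes passed in the FACS cells in place of 10, and 1 in the proximal tubule in place of 3. The summed TPM became 370.1 in the male, 375.2 in the female and 319.1 in the FACS library without the 10 highest genes, and 248.1, 231.0 and 158.1 without mitochondrially encoded genes. In the proximal tubule it was 9.11 without and 2.54 with mitochondrially encoded genes. Between the sexes the count was 0 under the 7 alternatives run.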
